A study of Mus musculus with 6 samples.

Results

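Fc, C-type lectin, TREM, Siglec, CD300, LILR and PILR receptors form the gene families described here, in contused mouse spinal cord with and without syringin, a plant phenylpropanoid glucoside. Members were all genes whose symbol begins with Fcgr, Fcer, Fcrl, Clec, Trem, Siglec, Cd300, Lilr or Pilr, Siglech left out, with a mean of at least 10 estimated counts over the 6 libraries. Of 77 genes of the table with such a symbol, 61 met the minimum, out of 37475 genes in all. Just above the minimum lay Clec18a at a mean of 14.0 counts and Clec12b at 15.3, and just below it lay Clec2e at 9.17 and Siglecl1 at 8.83.

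All mice were wild type and all received a contusion, a blunt impact, at the T10 level of the cord. One group of 3 (replicates 1 to 3) then received PBS, the vehicle, and the other group of 3 received 50 mg/kg syringin, each as an intraperitoneal injection every day for 3 days. Cord tissue was taken on day 3 and its polyadenylated RNA was sequenced as 1 library per replicate. Age and sex are not given in the sources used here, no uninjured cord was analysed here, and the libraries hold whole tissue, so that a change in the number of cells of a type and a change in RNA per cell cannot be told apart.

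These receptors sit mainly on myeloid cells, where they read antibodies, sugars, lipids and sialic acids on microbes, debris and neighbouring cells. Activating members carry no signalling tail of their own in most cases and pair with the adaptors Fcer1g or Tyrobp, whose tyrosine motif (ITAM) recruits the kinase Syk. Inhibitory members carry an inhibitory tyrosine motif (ITIM) that recruits phosphatases such as Ptpn6 and Inpp5d. In the cord they are read mostly in microglia and in the macrophages that enter from the blood after injury. A few genes share the name pattern without this role, among them neuronal, endothelial and secreted lectins.

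The promoters of these genes were examined for short motifs of myeloid and inflammatory transcription factors, and 6 of them, from Fc, TREM and lectin members, are shown. Fcgr1, Clec4d, Trem1 and Clec2l passed the test described below, while Fcgr4 and Trem2 did not. Of the 61 members, 50 had an entry in a RefSeq table of the build GRCm38.p6, with 57 promoters in all. Each line gives the 250 bases before the transcription start, 5′ to 3′ on the gene's strand, with matches to GAGGAAG (the core bound by PU.1, a factor of myeloid cells) or TGANTCA (AP-1) on either strand in capitals. In the opposite orientation GAGGAAG reads CTTCCTC. The windows are chr3:96293970-96294219 (minus strand) for Fcgr1, chr1:171018676-171018925 (plus) for Fcgr4, chr17:48346151-48346400 (plus) for Trem2, chr6:123261857-123262106 (plus) for Clec4d, chr17:48232489-48232738 (plus) for Trem1 and chr6:38662819-38663068 (plus) for Clec2l.
Fcgr1: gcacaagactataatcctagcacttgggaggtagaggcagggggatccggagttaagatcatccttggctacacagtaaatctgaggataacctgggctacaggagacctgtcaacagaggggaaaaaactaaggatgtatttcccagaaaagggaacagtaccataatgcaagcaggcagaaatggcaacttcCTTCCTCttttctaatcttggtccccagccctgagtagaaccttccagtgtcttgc
Fcgr4: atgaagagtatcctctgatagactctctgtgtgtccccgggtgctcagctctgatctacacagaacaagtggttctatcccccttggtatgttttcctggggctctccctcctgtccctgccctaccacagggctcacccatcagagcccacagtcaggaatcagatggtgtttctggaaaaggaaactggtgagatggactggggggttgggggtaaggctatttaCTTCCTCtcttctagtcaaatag
Trem2: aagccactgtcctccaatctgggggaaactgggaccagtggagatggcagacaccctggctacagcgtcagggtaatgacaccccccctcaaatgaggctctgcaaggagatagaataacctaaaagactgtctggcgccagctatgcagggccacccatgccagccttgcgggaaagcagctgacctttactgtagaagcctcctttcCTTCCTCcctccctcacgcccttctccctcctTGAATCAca
Clec4d: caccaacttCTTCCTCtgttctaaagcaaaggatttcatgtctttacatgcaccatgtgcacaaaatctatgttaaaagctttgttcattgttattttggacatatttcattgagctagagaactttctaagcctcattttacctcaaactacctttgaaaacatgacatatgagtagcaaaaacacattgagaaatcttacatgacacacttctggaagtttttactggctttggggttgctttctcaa
Trem1: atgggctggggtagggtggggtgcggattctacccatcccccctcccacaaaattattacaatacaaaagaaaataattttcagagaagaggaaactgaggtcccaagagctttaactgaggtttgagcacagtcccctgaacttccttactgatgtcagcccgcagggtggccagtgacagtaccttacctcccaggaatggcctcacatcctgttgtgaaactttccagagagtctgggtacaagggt
Clec2l: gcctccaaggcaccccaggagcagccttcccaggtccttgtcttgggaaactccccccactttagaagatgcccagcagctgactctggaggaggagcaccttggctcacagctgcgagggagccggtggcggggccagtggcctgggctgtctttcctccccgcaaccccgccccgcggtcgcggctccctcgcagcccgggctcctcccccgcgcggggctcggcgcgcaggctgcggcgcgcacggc

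In the printed promoters the PU.1 core began 56 bases before the start of Fcgr1, 23 before that of Fcgr4 and 41 before that of Trem2, each time in the opposite orientation. In Clec4d it began 241 bases before the start. The windows of Trem1 and Clec2l held neither motif. Among genes that passed the test below and are not printed, Fcrlb held the PU.1 core 129 bases before its start and Lilrb4b held neither motif. Over the families, 25 of 57 promoters (43.9%), from 24 members, held GAGGAAG, against 10.6% of 32851 promoters of the same length in the table. Within the last 100 bases, a window chosen after the matches were seen, the shares were 21.1% and 4.7%. TGANTCA was found in 10.5% of the members' promoters against 6.7% of all, and TTGCNNAA, a C/EBP core, in 21.1% against 9.6%. The motifs do not overlap one another in the printed sequences. These are matches of letters, and binding was not measured. Promoters of 1 gene overlap, and copied promoters of related genes were each counted. The windows of Cd300ld4 and Cd300ld5 are identical, and Cd300ld and Cd300ld3 share the stretch around GAGGAAG. Pilra, Pilrb1 and Pilrb2 share the stretch around their match to TTGCNNAA. How far such copies raise the members' shares was not tested.

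Most genes of these families had higher values in the syringin group, and 7 of them passed the test in that direction. By the quasi-likelihood test of edgeR, with p-values adjusted after Benjamini and Hochberg over 22114 genes, 7 of the 60 members that the filter on low counts left rose at an adjusted p under 0.05 (11.7%, beside 1.62% of all genes tested). They were Trem1, Fcrlb, Clec4n, Clec4d, Lilrb4b, Lilrb4a and Fcgr1. One, Clec2l, fell (1.67%, beside 3.39% of all genes), and 52 were not called, so that 8 were called in either direction (13.3%, beside 5.01%). An unadjusted p under 0.05 in edgeR was found for 21 members, beside 5214 of all 22114 genes. DESeq2 called 16 members higher and 2 lower, beside 1391 and 1797 of all genes. A positive fold change was found for 46 of 60 (76.7%, beside 50.9%), with a median log2 fold change of 0.49 against 0.01 over all genes. All 3 syringin values lay above all 3 PBS values for 15 members (25.0%, beside 14.7%) and below them for 6 (10%, beside 15.3%). Together the members took 1.24, 1.33 and 1.32 of every 1000 counts in PBS libraries 1 to 3 and 1.45, 2.22 and 1.82 in syringin libraries 1 to 3. These sums did not overlap, but they are weighted by the most abundant members. The called neighbours Lilrb4a and Lilrb4b gave 16297 and 13925 of 114259 member counts in syringin library 1. In PBS library 1 they gave 11777 and 9261 of 92022. The sums therefore show no separation of the families as a whole. Clec18a, with 4 to 44 counts per library, did not pass the filter.

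**Figure D1:**
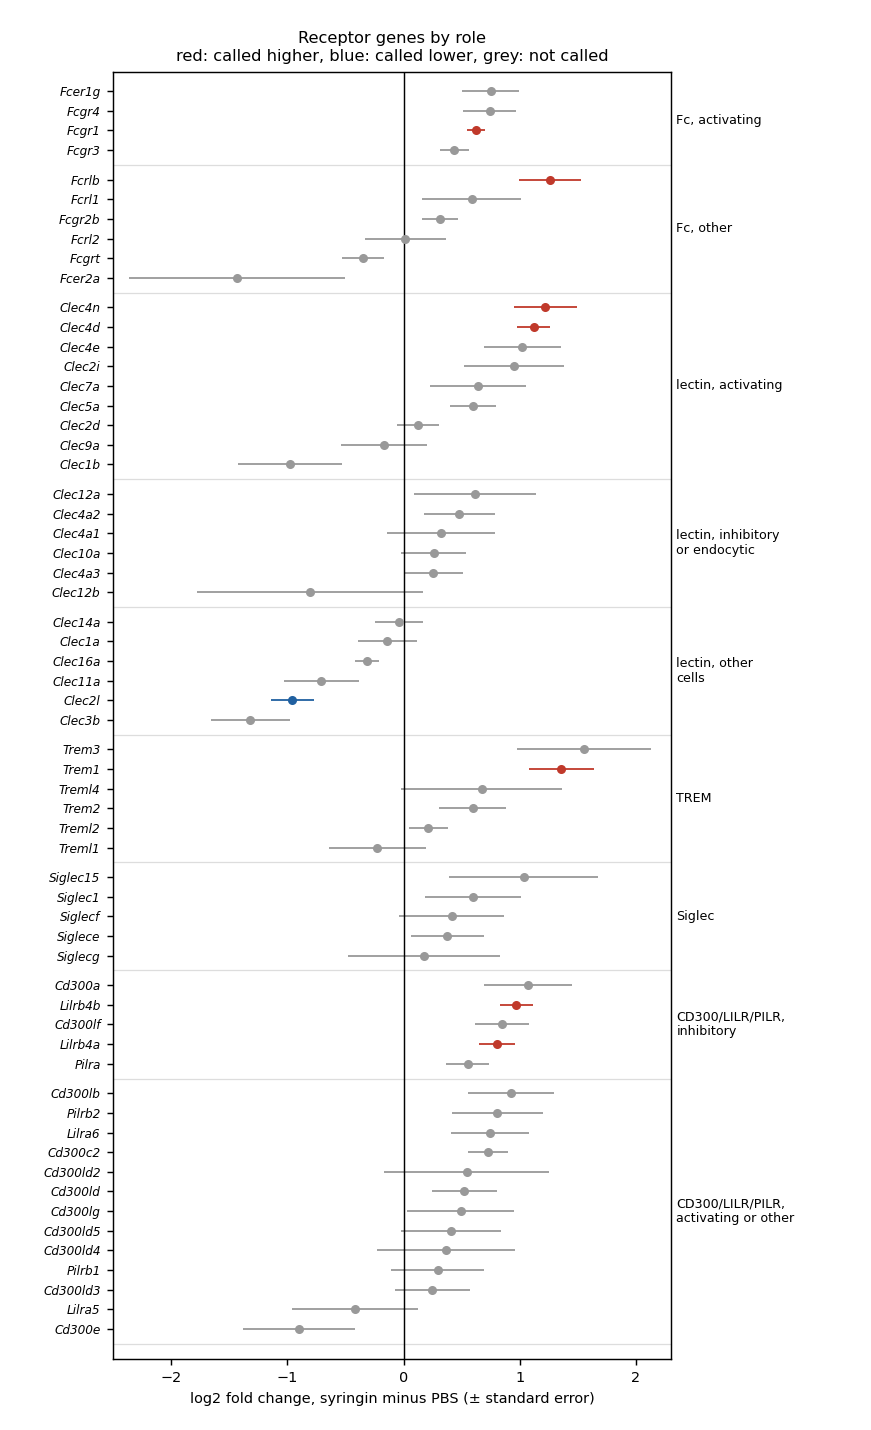
Log2 fold change (syringin against PBS, x axis) of each of the 60 receptor genes tested, grouped by role, with bars of 1 standard error. The 7 genes called higher and the 1 called lower are coloured by the edgeR call, and the fold changes run from -1.43 for Fcer2a to 1.55 for Trem3.

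The number of calls moved with single libraries. The fold changes of the 8 called genes kept their sign, which the lack of overlap between their groups fixes in advance. Over the 6 fits that each left out 1 library, the log2 fold change ran from 0.60 to 0.64 for Fcgr1, 0.99 to 1.22 for Clec4d, 0.90 to 1.09 for Lilrb4b, 0.67 to 0.96 for Lilrb4a, 1.0001 to 1.51 for Trem1, 1.12 to 1.47 for Fcrlb, 1.03 to 1.48 for Clec4n and -1.16 to -0.81 for Clec2l. Without PBS library 1, 2 or 3 in turn, 4, 1 and 0 members were called higher, and without syringin library 1, 2 or 3, 15, 3 and 2 were. Over all genes tested the same fits called 46, 19 and 0 higher without a PBS library. Without a syringin library they called 813, 111 and 36, so the counts moved in the whole data and not in the members alone. Clec2l stayed called without syringin library 1 or 3 and was not called without any other library. Where PBS library 3 was left out, edgeR called 0 members, 16 had an unadjusted p under 0.05, DESeq2 called 9 higher and 1 lower, and limma-voom called 0 with 14 unadjusted (both added after the data were seen). Over all genes there, edgeR and limma-voom called 0, and DESeq2 called 533 higher and 922 lower. Without syringin library 2 the members' median log2 fold change was 0.11, and 36 of 61 were positive.

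Markers of infiltrating monocytes and macrophages were higher as a sum in the syringin libraries, though most of them overlapped between groups. The summed level of 10 markers of infiltrating monocytes and macrophages was 2092, 2052 and 2660 CPM (counts scaled to library size and by the trimmed mean of M-values) in PBS libraries 1 to 3 and 3081, 4350 and 3361 in syringin libraries 1 to 3. All 10 had a positive fold change (beside 50.9% of all genes), and 4 had groups without overlap, syringin higher (beside 14.7%). F10, Arg1 and Thbs1, 3 of the 10, were called higher (beside 1.62% of all genes). Most of the sum came from Fn1 (1212 ± 267 and 1451 ± 331 CPM in the 2 groups, SD, n = 3 each) and Thbs1 (572 ± 153 and 1331 ± 393 CPM). For 8 markers of homeostatic microglia the sums were 817, 845 and 990 against 601, 1091 and 872 CPM, with 0 called by edgeR or limma-voom, 3 by DESeq2, 3 at an unadjusted p under 0.05 and a median log2 fold change of -0.37. Dendritic cell markers, 0 of 6 called by edgeR and 1 by DESeq2 with 3 at an unadjusted p under 0.05, summed to 27.3, 30.9 and 36.0 against 25.4, 47.2 and 44.8 CPM, and those of T and NK cells, 0 of 5 called and 2 at an unadjusted p under 0.05 in edgeR, to 1.80, 0.788 and 3.80 against 2.60, 4.98 and 6.04 CPM. No marker of these lists was at 0 in every library. Sensory ganglion markers, from cells outside the cord, were high in PBS library 1 (363.6 CPM summed) and syringin libraries 1 (296) and 3 (139.9) and at 28.1 to 59.0 CPM in the other 3. The part of any of these cell types in the receptor values was not tested. With the ganglion markers as a covariate, 14 members were called higher and 1 lower (1146 and 1438 of all genes).

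Of the activating Fc receptors and their shared gamma chain, all 4 tested had a positive fold change and 1 rose, Fcgr1, the high-affinity receptor for IgG (CD64). Fcgr1 stood at 41.8, 42.5 and 40.3 CPM in PBS libraries 1 to 3 and at 63.0, 63.4 and 65.3 CPM in syringin libraries 1 to 3. The groups did not overlap, and the values within each lay close together. Its log2 fold change was 0.62 ± 0.08 (SE, n = 3 in each group, edgeR adjusted p = 0.0121), and it was called in 5 of the 6 fits that each left out 1 library, all but the one without PBS library 3 (edgeR adjusted p = 0.106). In the deposited table Fcgr1 lies on chromosome 3 from 96190225 to 96201285, minus strand.

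Fcer1g, the gamma chain that carries the ITAM for Fcgr1, Fcgr3, Fcgr4 and several lectins, was the most abundant member per transcript length, with a mean of 78.0 FPKM in PBS and 128 in syringin. Its counts were 69.5, 76.3 and 74.7 CPM in PBS and 74.4, 161 and 135 CPM in syringin libraries 1 to 3. Syringin library 1 lay inside the PBS range and the other two lay far above it (log2 fold change 0.75 ± 0.25, edgeR adjusted p = 0.118). Fcgr3 (CD16), the low-affinity activating receptor, was at 94.6, 88.0 and 87.2 against 101, 141 and 124 CPM. Its groups did not overlap, without a call (0.44 ± 0.12, edgeR adjusted p = 0.0884). Fcgr4, which binds IgG2 subclasses, was at 15.7, 14.9 and 14.6 against 18.5, 35.5 and 21.6 CPM (0.74 ± 0.23, edgeR adjusted p = 0.104), with syringin library 2 far above the rest.

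Among the 6 other Fc receptor and Fc receptor-like genes tested, 1 rose, 4 had a positive fold change and the median log2 fold change was 0.16. Fcrlb, an intracellular Fc receptor-like protein known from B cells, rose from 0.993, 1.35 and 0.835 CPM to 2.29, 2.66 and 2.67 CPM (1.26 ± 0.27, edgeR adjusted p = 0.0420). Its groups lay apart, though the gene is of low abundance, and of the 6 fits that each left out 1 library only the one without syringin library 1 kept the call (edgeR adjusted p from 0.0423 to 0.189 over the 6). Summed B cell markers were 2.90, 3.20 and 2.80 CPM in PBS and 1.87, 1.63 and 2.70 CPM in syringin. Of the 5, 0 were called by edgeR, DESeq2 or limma-voom, and 1 had an unadjusted p under 0.05 in edgeR (beside 5214 of 22114 genes). Fcrlb lies on chromosome 1 from 170734842 to 170740510, minus strand.

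Fcgr2b, the inhibitory IgG receptor, was at 82.3, 88.4 and 85.3 CPM in PBS and 88.0, 134 and 95.7 CPM in syringin (0.31 ± 0.15, edgeR adjusted p = 0.269). Fcrl2, which annotation also lists as Fcrls and which is known as a marker of resting microglia, was the second most abundant member at 60.7 and 59.9 FPKM. Its counts were 117, 154 and 187 CPM in PBS against 76.7, 179 and 207 in syringin, with wide overlap (0.01 ± 0.35, edgeR adjusted p = 0.986). Its sign turned without composition factors (-0.03) and in limma-voom (-0.09). Fcgrt, the neonatal Fc receptor that recycles IgG and albumin, was at 33.1 to 51.5 CPM in PBS and 31.5 to 40.2 CPM in syringin. Fcer2a, the low-affinity IgE receptor of B cells, had 0 counts in syringin library 2, which allows up to 3 counts or 0.0470 CPM from counting error only, and at most 0.425 CPM elsewhere.

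**Figure D2:**
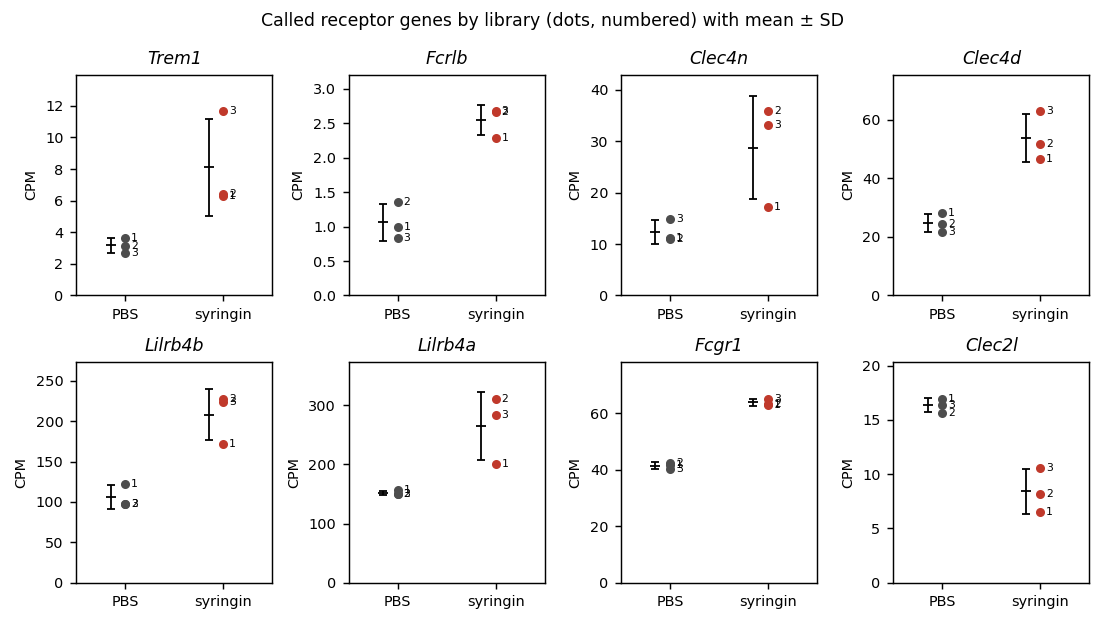
Counts scaled to library size (CPM, y axes) of the 8 called receptor genes in the 3 PBS and 3 syringin libraries, with points for libraries, and the group means ± SD drawn beside them. In each panel the 3 values of 1 group lie above the 3 of the other. The syringin values run from 63.0 to 65.3 CPM for Fcgr1 and from 6.301 to 11.7 CPM for Trem1.

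The activating C-type lectin receptors held 2 rising genes among 9 tested, with 7 positive fold changes and a median log2 fold change of 0.64. Both lie on chromosome 6, which holds 16 of the 61 members. Clec4d (MCL), a receptor for mycobacterial glycolipid that works with Clec4e, rose from 28.1, 24.4 and 21.8 CPM to 46.7, 51.8 and 62.9 CPM. The lowest syringin value lay well above the highest PBS value (1.12 ± 0.14, edgeR adjusted p = 0.0129). Leaving out PBS library 2 or 3 lost the call (edgeR adjusted p of up to 0.0959), and the other 4 fits kept it. Clec4n (Dectin-2), a receptor for fungal mannans that signals through Fcer1g, rose from 11.1, 10.9 and 14.9 CPM to 17.2, 35.8 and 33.2 CPM. Syringin library 1 lay just above the PBS range and the other two well above it (1.22 ± 0.27, edgeR adjusted p = 0.0462). Its call was kept without syringin library 1 and lost without any other library (edgeR adjusted p of up to 0.154), in limma-voom, in limma on FPKM and without the filter on low counts. Clec4d lies on chromosome 6 from 123239070 to 123252224 and Clec4n from 123206802 to 123223980, both on the plus strand.

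Their relatives were not called. Clec4e (Mincle), which senses glycolipids and a nuclear protein of dead cells, was at 3.26, 6.60 and 6.52 against 8.46, 9.27 and 15.6 CPM, without overlap (1.02 ± 0.33, edgeR adjusted p = 0.116). Clec7a (Dectin-1), the beta-glucan receptor that also marks microglia responding to damage, was at 26.5, 43.6 and 42.5 against 25.9, 86.9 and 62.6 CPM. Syringin library 1 was the lowest of all 6 and library 2 the highest (0.64 ± 0.41, edgeR adjusted p = 0.404). Clec5a, which pairs with Tyrobp, was at 14.4, 16.2 and 14.7 against 18.1, 30.6 and 19.8 CPM, again without overlap (0.60 ± 0.20, edgeR adjusted p = 0.124). The list also held Clec2d and Clec2i, which are ligands of NK cell receptors, at 0.12 and 0.95 (log2 fold change), the dendritic cell receptor Clec9a at -0.17 and the platelet podoplanin receptor Clec1b at -0.98, none of them called. Clec1b stood at no more than 0.702 CPM. Clec9a and Clec1b overlap on the same strand, and Clec2i overlaps BC035044 on the opposite strand. Of the 4 platelet markers Pf4 alone was called by edgeR (beside 1.62% of all genes called higher), at 38.1, 40.1 and 42.7 against 102, 71.7 and 72.0 CPM. Itga2b, Ppbp and Gp9 overlapped between groups, at log2 fold changes of 0.13, 0.16 and -0.95.

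The inhibitory and endocytic lectins gave 0 calls among 6 tested by edgeR, DESeq2 or limma-voom, and 0 had an unadjusted p under 0.05 in edgeR. Of the 6, 5 had a positive fold change (median log2 fold change 0.29). Clec12a (MICL), an inhibitory receptor for uric acid crystals and dead cells, was at 3.67, 7.25 and 5.07 CPM against 3.95, 15.8 and 4.76, so that only syringin library 2 left the PBS range (0.62 ± 0.53, edgeR adjusted p = 0.533). The Clec4a group of the DCIR lectins, Clec4a1, Clec4a2 and Clec4a3, had values between 0.26 and 0.48 and Clec10a, a galactose lectin of macrophages, 0.26, as log2 fold changes. Clec12b was at -0.80, with 0 counts in syringin library 2.

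The lectin genes of neurons, endothelium, stroma and other cells pointed the other way, with 0 of 6 tested positive, 1 called and a median log2 fold change of -0.51. Clec2l, a lectin known from the brain, fell from 17.0, 15.7 and 16.4 CPM to 6.498, 8.16 and 10.6 CPM. The groups lay far apart (-0.96 ± 0.19, edgeR adjusted p = 0.0337), and without PBS library 1, 2 or 3 or syringin library 2 the adjusted p was between 0.0832 and 0.161. Beside it, the summed level of 6 neuronal markers was 3358, 2682 and 3288 CPM in PBS and 1915, 1328 and 1729 in syringin. Of the 6, 4 were called lower, Snap25, Map2, Nefl and Nefm (beside 3.39% of all genes). Whether Clec2l moved with the share of neuronal RNA was not tested. Clec2l lies on chromosome 6 from 38640002 to 38657800, plus strand.

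Clec3b (tetranectin), a secreted plasminogen-binding lectin, was at 1.67, 1.93 and 3.14 CPM against 1.13, 0.705 and 0.852, below the PBS range in every syringin library but not called (-1.32 ± 0.34, edgeR adjusted p = 0.0671). Clec11a, a secreted growth factor of bone, was at 1.88, 3.31 and 3.50 against 2.16, 1.27 and 1.88 CPM (-0.71 ± 0.32, edgeR adjusted p = 0.235). Clec16a, an autophagy regulator, was at 48.9 to 54.6 CPM in PBS and 37.2 to 45.5 CPM in syringin (-0.32 ± 0.10). The endothelial Clec14a overlapped between groups, at 29.9 to 42.3 and 27.2 to 45.7 CPM. The endothelial markers summed to 469, 516 and 459 against 554, 630 and 617 CPM, with Pecam1 alone of 6 called higher (beside 1.62% of all genes).

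The TREM family, with 5 of 6 tested genes positive and a median log2 fold change of 0.63, held the largest rise among the called receptors. Trem1, which amplifies inflammatory signalling of neutrophils and monocytes through Tyrobp, rose from 3.64, 3.14 and 2.71 CPM to 6.301, 6.40 and 11.7 CPM. All syringin values lay above all PBS values and library 3 was the highest (1.36 ± 0.28, edgeR adjusted p = 0.0399). The call was kept without syringin library 1, lost without any other library (edgeR adjusted p of up to 0.189) and lost in limma-voom and in limma on FPKM. The 10 neutrophil markers summed to 92.8, 126 and 82.1 CPM against 121, 102 and 40.4 CPM. They did not move alike, with 5 positive fold changes and a median log2 fold change of -0.15. Mmp8 was called higher by edgeR (0.80, 1 of 10 beside 1.62% of all genes) and Cxcr2 was at 0.69. Ngp, Ltf and Camp were at -1.70, -1.57 and -1.31, not called by edgeR. DESeq2 called 3 of the 10 and limma-voom 0. In edgeR the unadjusted p was under 0.05 for 3 (beside 5214 of 22114 genes), Mmp8 (0.0021), Ngp (0.0044) and Ltf (0.0146). The groups of Ngp did not overlap, syringin lower. The part of neutrophils in the Trem1 values was not tested. Trem1 lies on chromosome 17 from 48539796 to 48553952, plus strand.

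Trem3, a mouse receptor that also uses Tyrobp, had the largest fold change of all members but stood at 1.29 CPM or less in every library, at 0.662, 0.401 and 0.103 against 1.02, 1.13 and 1.29 (1.55 ± 0.58, edgeR adjusted p = 0.156). Trem2, the lipid receptor of microglia and macrophages, was at 74.6, 90.0 and 93.7 CPM against 73.3, 183 and 134. Syringin library 1 was the lowest of all 6 and the other two were the highest (0.60 ± 0.29, edgeR adjusted p = 0.258). Treml2 and Treml4 had positive fold changes and the platelet gene Treml1 a negative one, -0.23, none called.

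In the Siglec family, sialic acid receptors that mostly inhibit, all 5 tested genes had a positive fold change (median log2 fold change 0.41). EdgeR, DESeq2 and limma-voom called 0 of them, and 0 had an unadjusted p under 0.05 in edgeR. Siglec1 (CD169, sialoadhesin of macrophages) was at 35.8, 47.5 and 41.6 CPM against 44.7, 111 and 33.9, so that syringin library 2 was high and library 3 the lowest of all (0.60 ± 0.41, edgeR adjusted p = 0.434). Siglece, an inhibitory receptor of neutrophils and macrophages, was at 2.64, 3.86 and 2.14 against 4.27, 4.45 and 2.48 CPM (0.37 ± 0.31, edgeR adjusted p = 0.525). Siglecf, an eosinophil marker, was at 2.05, 4.01 and 2.86 against 2.95, 6.84 and 2.10 CPM (0.41 ± 0.45, edgeR adjusted p = 0.641). Markers of mast cells, basophils and eosinophils summed to 1.80, 2.26 and 2.08 against 0.863, 0.658 and 0.544 CPM, below the PBS range in each syringin library while Siglecf was not. Of the other sialic acid receptors outside the name pattern, Cd22, Cd33 and Mag, 0 of 3 were called by edgeR, DESeq2 or limma-voom and 0 had an unadjusted p under 0.05 (1.15, -0.19 and 0.31 as log2 fold changes).

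The inhibitory CD300, LILR and PILR group had the highest median of the roles, 0.85 over 5 tested genes, with all 5 positive and 2 that rose. Lilrb4a (gp49B), whose tail carries the ITIM, rose from 156, 150.2 and 149 CPM to 201, 311 and 283 CPM (0.80 ± 0.15, edgeR adjusted p = 0.0316). Lilrb4b, known as gp49A, rose from 123, 97.4 and 98.0 CPM to 172, 228 and 224 CPM (0.97 ± 0.14, edgeR adjusted p = 0.0187). Neither overlapped between groups, with syringin library 1 the lowest of its group in both. Lilrb4b stands in the list for its family, and gp49A is known to lack the inhibitory tail of gp49B. The pair lies side by side on chromosome 10, at 51367052 to 51372707 (Lilrb4a) and 51356728 to 51362799 (Lilrb4b), plus strand. Of stretches of 75 bases in their transcripts, 13.6% of Lilrb4a and 9.7% of Lilrb4b are found in the other, and both overlap Gm49339 on the same strand, so that how reads were divided between them is uncertain. Lilrb4a kept its call without syringin library 1 alone (edgeR adjusted p of up to 0.168 without another). Lilrb4b kept it without PBS library 1 or syringin library 1 or 2 (edgeR adjusted p of up to 0.125 without another).

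Cd300lf (CLM-1), a phospholipid receptor with ITIMs, was at 75.3, 40.8 and 46.5 against 95.5, 116 and 81.9 CPM, without overlap (0.85 ± 0.23, edgeR adjusted p = 0.0797). It overlaps Rab37 on the opposite strand (a mean of 1927 counts beside 5385 for Cd300lf). Cd300a, an inhibitory receptor for phosphatidylserine of dying cells, was at 8.09, 15.4 and 12.1 against 13.4, 38.6 and 23.0 CPM, with syringin library 1 inside the PBS range (1.07 ± 0.38, edgeR adjusted p = 0.142). Pilra, an inhibitory receptor for sialylated proteins, was at 5.22, 6.9997 and 5.17 against 9.48, 8.44 and 7.57 CPM, all above the PBS range (0.55 ± 0.19, edgeR adjusted p = 0.126). It overlaps Zcwpw1 on the opposite strand, whose mean of 685.5 counts exceeds the 506.8 of Pilra, and whether counting used strand is not given.

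The activating and other CD300, LILR and PILR genes numbered 13 tested, 11 with a positive fold change (median log2 fold change 0.49). EdgeR called 0 of them, and 2 had an unadjusted p under 0.05 (beside 5214 of 22114 genes). DESeq2 called 1 (beside 1391 higher and 1797 lower of all genes) and limma-voom 0. Cd300lb (CLM-7), an activating receptor coupled to Tyrobp, was at 5.85, 11.7 and 9.03 against 9.22, 24.3 and 16.9 CPM (0.92 ± 0.37, edgeR adjusted p = 0.180). Cd300c2, an activating receptor, was at 25.0, 23.7 and 24.1 CPM against 32.9, 52.5 and 35.4, a separation just short of a call (0.73 ± 0.17, edgeR adjusted p = 0.0547). Pilrb1, the activating partner of Pilra, was at 0.569, 1.38 and 1.25 against 1.33, 1.63 and 0.955 CPM (0.29 ± 0.40, edgeR adjusted p = 0.717). Cd300ld2, Cd300ld3, Cd300ld4 and Cd300ld5 share 22.2%, 81.5%, 90.4% and 100% of their 75-base stretches with another member, so their values are uncertain gene by gene. For Cd300ld itself the share was 2.3%. Cd300e was the exception in sign together with Lilra5, at -0.90 and -0.42.

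Of 19 genes of the ITAM adaptors and the Syk and Card9 pathway, all 19 had a positive fold change and 12 had groups without overlap, syringin higher (beside 14.7% of all genes). EdgeR and limma-voom each called 1 of the 19 (beside 1.62% of all genes in edgeR), DESeq2 called 6, and 12 had an unadjusted p under 0.05 in edgeR. Over all 22114 genes, DESeq2 called 1391 higher and 1797 lower, and 5214 had an unadjusted p under 0.05 in edgeR. The gene called by edgeR was Fgr, a Src-family kinase of myeloid cells (0.97 ± 0.22, edgeR adjusted p = 0.0458), at 11.4, 17.5 and 12.3 against 24.1, 34.2 and 22.5 CPM. Tyrobp, the adaptor of Trem1, Trem2 and Clec5a, was at 52.9, 64.9 and 63.5 against 66.3, 141 and 96.9 CPM (0.75 ± 0.24, edgeR adjusted p = 0.118), and Syk at 39.95, 44.5 and 43.2 against 57.0, 99.7 and 62.5 CPM (0.78 ± 0.20, edgeR adjusted p = 0.0660). Card9, the adaptor of lectin signalling, had a log2 fold change of 0.45 ± 0.19 (edgeR adjusted p = 0.208). Of 7 genes of the ITIM side, 6 were positive and 5 had groups without overlap, syringin higher (beside 14.7% of all genes). EdgeR and limma-voom each called 1 (beside 1.62% of all genes in edgeR). DESeq2 called 3, and 4 had an unadjusted p under 0.05 in edgeR, beside the same counts over all genes. Dok3, an inhibitory adaptor, was the gene called by edgeR, at 20.3, 17.8 and 17.0 against 25.1, 31.7 and 31.7 CPM (0.68 ± 0.13, edgeR adjusted p = 0.0333). The phosphatases Ptpn6 and Inpp5d had log2 fold changes of 0.53 ± 0.23 and 0.33 ± 0.18, not called.

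Paired receptors of opposite or shared function were compared as log2 ratios of FPKM within each library, for 7 pairs chosen with earlier results known. The ratio of the activating Fcgr3 to the inhibitory Fcgr2b was 1.93, 1.72 and 1.76 in PBS and 1.93, 1.80 and 2.10 in syringin, a difference of 0.14 (two-sided exact permutation p = 0.3, the smallest this design allows being 0.1). Trem1 against Trem2 was -3.52, -4.00 and -4.23 in PBS and -2.76, -4.05 and -2.77 in syringin, a difference of 0.73 (exact permutation p = 0.3), with syringin library 2 inside the PBS range. The other differences were 0.06 for Fcgr4 over Fcgr1, -0.14 for Clec4e over Clec4d, 0.14 for Clec7a over Clec12a, -0.24 for Pilrb1 over Pilra and -0.03 for Cd300lb over Cd300lf. All 7 adjusted exact permutation p-values were 1.0, and with 3 against 3 no ratio could have been called.

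The syringin libraries did not move alike. Of 60 members, 46 were above all 3 PBS values in syringin library 2 (76.7%, beside 34.7% of all genes), 25 in library 1 (41.7%, beside 31.9%) and 24 in library 3 (40%, beside 33.9%). Library 2 was the highest of all 6 for 34 members, beside 20.7% of all genes. For 14 members library 2 alone lay above the PBS range (23.3%, beside 6.95%). In library 1, 15 members lay below all 3 PBS values (25%, beside 30.8%). For 8 members, Cd300a, Clec2i, Cd300lb, Fcer1g, Clec7a, Trem2, Cd300lg and Fcgr2b, libraries 2 and 3 exceeded the PBS range and library 1 did not (13.3%, beside 7.64%).

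**Figure D3:**
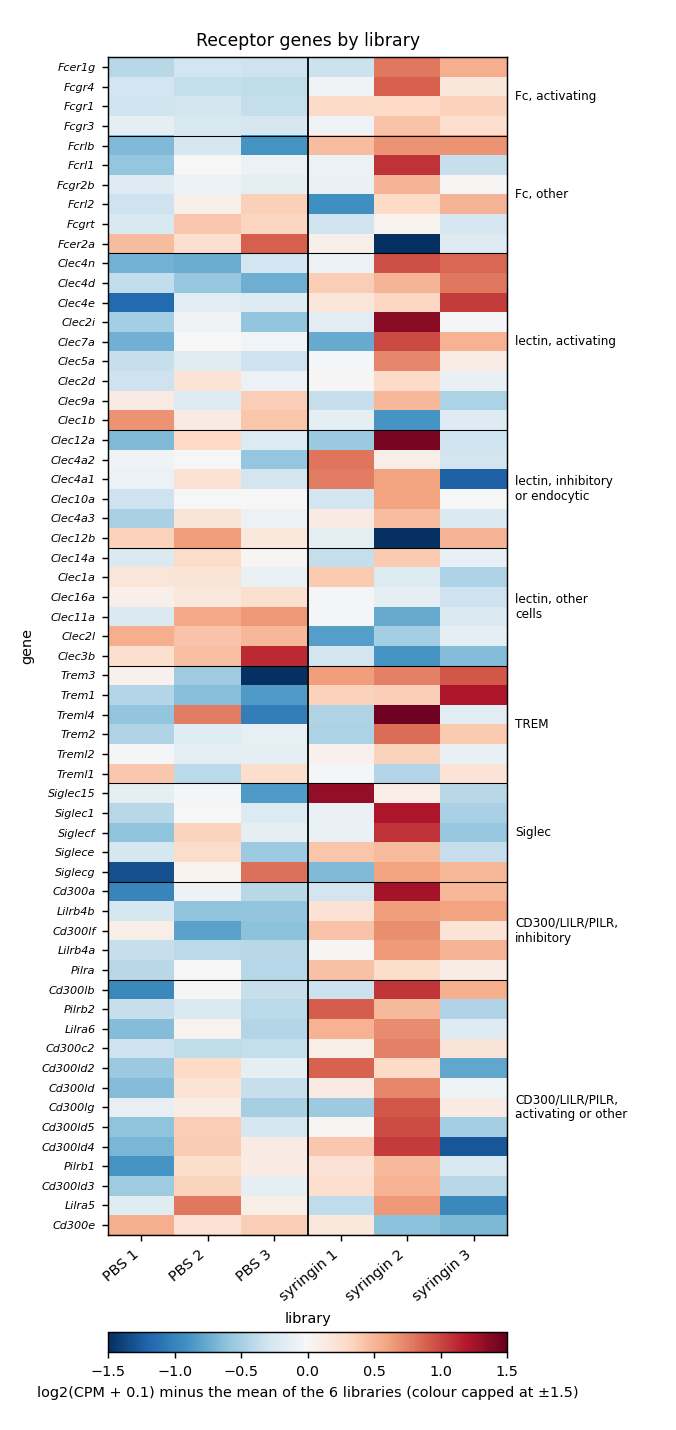
Log2 deviation of each receptor gene (rows, grouped by role) from its own mean over the 6 libraries (columns), as a colour scale capped at ±1.5. Syringin library 2 is the highest library for 34 of 60 tested genes, and its median deviation is 0.51, against -0.02 in library 1 and -0.11 in library 3.

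Genes that mark leukocytes in general were averaged for comparison. The mean log2 deviation of 7 of them (Ptprc, Itgb2, Laptm5, Cd53, Coro1a, Aif1 and Csf1r) was -0.27, -0.14 and -0.06 in PBS libraries 1 to 3 and -0.23, 0.50 and 0.21 in syringin libraries 1 to 3, a shift of 0.32 between groups. EdgeR and limma-voom called 0 of the 7, DESeq2 called 3 (beside 1391 higher and 1797 lower of all genes), and 3 had an unadjusted p under 0.05 in edgeR (beside 5214 of 22114 genes). The 7 did not move alike: 4 had groups without overlap and higher syringin values, Csf1r had lower ones (333 ± 22.5 against 271 ± 56.0 CPM, SD, n = 3 in each group), and Aif1 overlapped. Taken relative to that mean, the median difference of the members was 0.05, with 32 of 60 positive. The groups then did not overlap for 8 members with higher values, Trem1, Fcrlb, Clec4n, Clec4d, Lilrb4b, Lilrb4a, Fcer1g and Cd300c2 (13.3%, beside 1.52% of all genes), and for 7 with lower values, among them Clec2l, Clec3b and Fcgrt (11.7%, beside 21.1%). The subtraction shifts every gene alike. Over all genes it took the share without overlap from 14.7% to 1.52% with syringin higher, and from 15.3% to 21.1% with syringin lower. These shares are therefore no baseline for genes of leukocytes. The relative differences were 0.96 for Trem1, 0.79 for Clec4d, 0.65 for Lilrb4b and 0.46 for Lilrb4a on the log2 scale. Fcgr1, at 0.30, overlapped between groups on this scale.

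**Figure D4:**
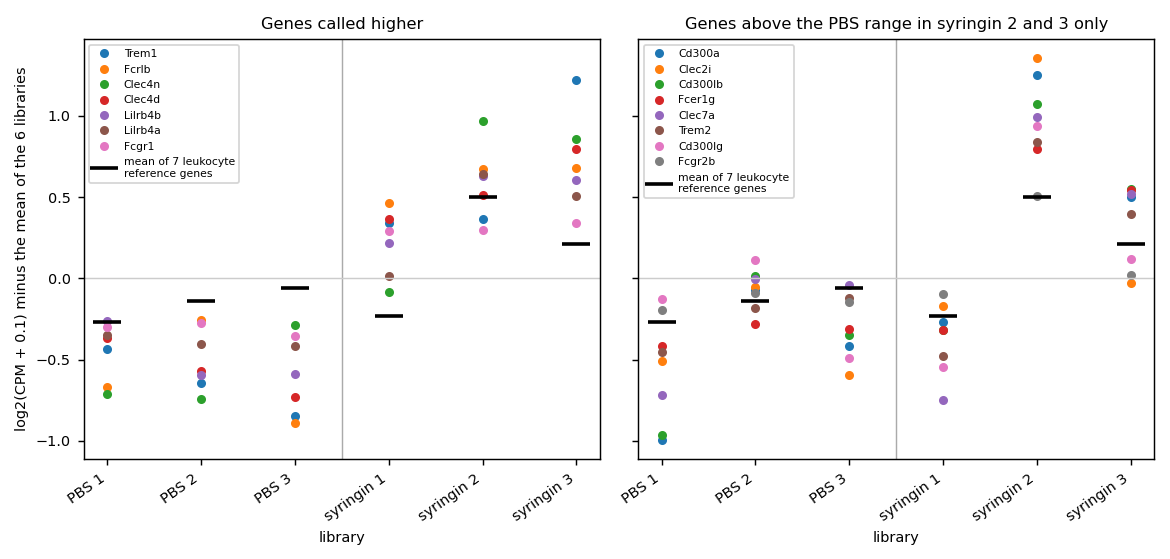
Log2(CPM + 0.1) minus the mean of the 6 libraries (y axis) by library, for the 7 genes called higher (left) and for the 8 genes above the PBS range in syringin libraries 2 and 3 only (right, chosen on these values), with black bars for the mean of 7 leukocyte reference genes. On the right, syringin library 1 lies with the PBS libraries, as the reference genes do at -0.23.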

How the data were processed

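Polyadenylated RNA of contused cord was sequenced from 3 PBS and 3 syringin replicates, with groups taken from each sample's treatment label. The submitters' processing notes name HISAT2, StringTie and the builds GRCm38 and mm10. The authors deposited 1 table with an estimated count (whole numbers) and an FPKM value, scaled by transcript length and depth, per gene and library. Library totals ran from 65579117 to 78843034 counts. The value 4 was 1.51 times as frequent as the mean of 3 and 5, so 1 fragment may add about 4 counts and counting error may be larger than the totals imply. No label names strand or multi-mapping settings of the counting.

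The members, lists, pairs and rule for named genes were chosen with earlier results of these data known. Full values were given for every called member, 23 members fixed by name, and the 3 largest rises and falls at 1 CPM or more. The fit used edgeR 4.0.16 (quasi-likelihood, robust) in R 4.3.3 after TMM scaling, with factors from 0.9655 to 1.0292, and after filterByExpr had removed low genes at a minimum count of 10 and a minimum total of 15. It was tested first on simulated counts with the same spread for every gene. Of planted log2 changes of 0.58, 1 and 1.5 it called 4.5%, 31.3% and 87.9%, with 3 false calls among 85. A gene that was not called may therefore still differ between groups. Calls are at a Benjamini-Hochberg adjusted p under 0.05 over 22114 genes, two-sided, and each standard error is the size of the log2 fold change divided by the root of its F statistic. The labels give replicate numbers but no animal identifiers, so p-values measure the spread between these samples. Pair ratios used log2(FPKM + 0.1), and the reference comparison log2(CPM + 0.1). The other settings were RLE, upper-quartile or no factors, DESeq2 1.42.0, limma 3.58.1 (voom, and on FPKM with 0.1 or 1 added), no robust estimation, other filters, counts divided by 4, a replicate block, a ganglion covariate and each library left out.

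Of the members, 61 lay on the same chromosome, 54 spanned the same length and 0 began at the same base in a GRCm38 annotation (GENCODE M21), so the build of the deposited coordinates is uncertain. Promoters are RefSeq's of GRCm38.p6. Protein sequences were not used here. Tables and figures used Python 3.11.15, pandas 2.3.3, scipy 1.17.1 and matplotlib 3.10.9.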

Additional observations from a re-analysis of the deposited data

How the results depend on the processing

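RLE, upper-quartile and no composition factors, no robust estimation, no filter and a filter at 1 CPM called 7 or 8 receptor genes higher and 1 lower. Without a filter Clec4n was no longer called and Cd300c2 was. Limma-voom and limma on log2(FPKM + 0.1) or log2(FPKM + 1) called 5 and 1, losing Trem1 and Clec4n, and over all genes the FPKM fits called 211 and 215 higher. DESeq2 called 16 receptor genes higher and 2 lower (1391 and 1797 of all genes), and the ganglion covariate 14 and 1 (1146 and 1438). Counts divided by 4 called 8 and 1. The replicate block called 11 and 1 (1062 and 1495 of all genes). Libraries of the same number correlated at 0.292, 0.123 and 0.052, and libraries of different numbers at -0.229 to 0.135. PBS library 3 correlated better with syringin library 2 than with syringin library 3. One same-number value was under 0.1, so no pairing was assumed, and whether the numbers mark a shared source is not known. Leaving out each library in turn gave 0 to 15 receptor genes higher and 0 to 1 lower, and 0 to 813 higher and 0 to 1131 lower among all genes. Limma-voom without PBS library 3, added after the data were seen, called 0 receptor genes and 0 genes in either direction, and DESeq2 there 9 and 1 receptor genes. The cause of these changes was not tested.

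Leaving out a library turned the sign of 17 fold changes that were not called and of 4 ratios. Over the 6 fits the log2 fold changes ran from -0.071 to 0.96 for Cd300ld2, -0.22 to 0.80 for Cd300ld4, -0.12 to 0.74 for Cd300ld5, -0.035 to 0.80 for Cd300lg, -0.043 to 0.44 for Clec10a, -0.29 to 0.95 for Clec12a, -0.28 to 0.11 for Clec14a, -0.44 to 0.028 for Clec1a and -0.012 to 0.73 for Clec4a1. They ran from -0.58 to 0.016 for Clec9a, -0.012 to 0.85 for Fcrl1, -0.26 to 0.33 for Fcrl2, -0.0096 to 0.53 for Pilrb1, -0.081 to 0.90 for Siglec1, -0.23 to 0.71 for Siglecf, -0.27 to 0.86 for Siglecg and -0.25 to 1.498 for Treml4. The ratio differences ran from -0.22 to 0.24 for the ratio of Fcgr4 over Fcgr1, -0.54 to 0.10 for the ratio of Clec4e over Clec4d, -0.22 to 0.36 for the ratio of Clec7a over Clec12a and -0.55 to 0.37 for the ratio of Cd300lb over Cd300lf. Clec14a turned to 0.016 with the ganglion covariate. Fcrl2 turned to -0.031 without composition factors, -0.086 in limma-voom, -0.0805 with the replicate block and -0.11 and -0.10 on FPKM with 0.1 and 1 added. Clec4a1 turned to -0.0012 in limma-voom without PBS library 3. Counting limits bear on the members under 1 CPM, of which Trem3 has the largest fold change.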
